A study of Mus musculus with 6 samples.

Results

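The 9 genes described here write, copy or remove methyl groups on cytosine in DNA, or act next to that machinery. They were taken by symbol, as the rows named Dnmt1, Dnmt3a, Dnmt3b, Dnmt3l, Uhrf1, Tet1, Tet2, Tet3 and Prdm14, and make up 9 of the 25239 genes listed. RNA was measured by bulk RNA sequencing in 6 libraries of thyroid organoids grown from mouse embryonic stem cells, 2 libraries in each of 3 groups. DNA methylation itself was not measured in the files used here, so every value below is a transcript level.

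DNA methylation in mammals is set at new CG sites by the de novo methyltransferases Dnmt3a and Dnmt3b, helped in early embryonic and germ cells by Dnmt3l, a relative without catalytic activity. After each round of replication Dnmt1, brought to hemimethylated sites by Uhrf1, restores the pattern on the new strand. The Tet enzymes oxidise the methyl group, which opens a route to its removal, and Prdm14 is a zinc-finger repressor of pluripotent and primordial germ cells known to hold down the de novo methyltransferase genes.

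All 6 libraries came from 1 engineered line, G4 RosaLuc, with doxycycline-driven Nkx2-1 and Pax8 and with a Braf V637E-ERT2 fusion behind a bovine thyroglobulin promoter. Every group had 5 days of doxycycline at 1 µg/ml, 2 weeks of 8-Br-cAMP and was collected at day 31. According to the paper, the sequenced organoids had been enriched for follicles, which lowered the part of non-thyroid cells without removing them. The group called cAMP had no further drug. The 4OHT group also had 1 µM 4-hydroxytamoxifen, which releases the Braf V637E fusion, for 5 days per its label. The PD+LY group had 4-hydroxytamoxifen and, for 3 days, the MEK inhibitor PD0325901 (250 nM) and the PI3K inhibitor LY204002 (5 µM, spelled as in the labels). Per the paper's methods, organoids given inhibitors had been in 4-hydroxytamoxifen for days beforehand and stayed in it alongside them. The inhibitors and the time in 4-hydroxytamoxifen may thus both differ from the 4OHT group. The bovine promoter is meant to limit the fusion to thyroid-like cells, whereas the inhibitors reach every cell. Wells were pooled within a condition and no source says that the replicates came from separate differentiations, so the p-values measure the spread between these libraries, which may be technical.

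Library size ran from 14898409 to 20637959 counts, and 15256 genes passed the filter on low counts, the 9 among them. Levels are given in CPM, counts scaled by library size with TMM factors, where 1 count is worth 0.0486 to 0.0667 CPM. The thyroid marker Tg was present, at 514 to 1870 CPM over the 6 libraries. Pluripotency markers were present too, with Pou5f1 at 627 to 786 CPM and Dppa5a at 1130 to 1570 CPM, so these organoids were a mixture by their markers. In such bulk RNA, fewer cells of a type and less RNA per cell cannot be told apart.

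To show what kind of DNA lies at the starts of the genes that fell past 2-fold, 200 bases upstream of a RefSeq start site are printed for each of the 3 (GRCm38.p6, 5′ to 3′ on the strand of the gene, CG dinucleotides in capitals). The region of Dnmt3a is chr12:3806780-3806979 and holds 29 CG dinucleotides, that of Dnmt3b is chr2:153649249-153649448 with 20, and that of Dnmt3l is chr10:78049642-78049841 with 4. In the GENCODE annotation the regions of Dnmt3a and Dnmt3l lie inside the gene's span, outside its exons, and that of Dnmt3b just before the gene's start. All 3 genes are on the plus strand.
Dnmt3a: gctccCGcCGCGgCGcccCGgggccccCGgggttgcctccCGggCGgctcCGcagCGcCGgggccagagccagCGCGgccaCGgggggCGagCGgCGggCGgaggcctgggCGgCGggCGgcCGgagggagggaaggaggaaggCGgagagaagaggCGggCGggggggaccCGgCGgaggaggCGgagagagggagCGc
Dnmt3b: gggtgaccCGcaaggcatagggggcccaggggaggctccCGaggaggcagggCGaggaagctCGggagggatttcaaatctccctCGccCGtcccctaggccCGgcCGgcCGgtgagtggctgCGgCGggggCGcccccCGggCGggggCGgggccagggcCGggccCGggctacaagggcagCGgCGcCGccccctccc
Dnmt3l: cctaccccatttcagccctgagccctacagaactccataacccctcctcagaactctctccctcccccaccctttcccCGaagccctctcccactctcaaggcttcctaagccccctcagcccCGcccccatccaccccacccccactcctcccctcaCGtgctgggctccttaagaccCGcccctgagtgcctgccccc
The de novo enzymes' start regions are thus rich in CG, and that of Dnmt3l is poor in it. Over the full windows of 300 bases, from 250 before to 50 after a start, the median of 32851 mouse windows was 7 CG dinucleotides, and the 3 windows of Dnmt3l held 6, 4 and 3.

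Dnmt3b, a de novo methyltransferase of early embryonic cells, fell at both steps. Its level was 286.4 and 292.4 CPM in cAMP, 161.3 and 142.8 CPM in 4OHT, and 83.18 and 100.3 CPM in PD+LY. No 2 groups overlapped. The log2 fold change was -0.93 ± 0.11 (SE) for 4OHT against cAMP (adjusted p = 0.000466), -0.73 ± 0.11 for PD+LY against 4OHT (adjusted p = 0.000772) and -1.66 ± 0.11 for PD+LY against cAMP (adjusted p = 1.47e-06), the last a 3.15-fold lower level (edgeR quasi-likelihood test, Benjamini-Hochberg over 15256 genes). The 3 comparisons share groups and are not independent of each other.

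Dnmt3a, the other de novo enzyme and the one that prevails in differentiated tissues, fell in the same order. It was at 270.6 and 275.4 CPM in cAMP, 181.5 and 179.6 CPM in 4OHT, and 127 and 137.2 CPM in PD+LY, again with no overlap. Its log2 fold changes were -0.60 ± 0.088 (edgeR adjusted p = 0.00213), -0.45 ± 0.088 (0.00392) and -1.05 ± 0.089 (1.06e-05) in the same 3 comparisons. The fall from cAMP to PD+LY was 2.07-fold, just past the 2-fold threshold, and was -0.99 on the log2 scale without PD+LY replicate 1. Without 4OHT replicate 1 the adjusted p of the first step was 0.0544 and that of the second 0.0501, and without 4OHT replicate 2 the latter was 0.0534.

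Dnmt3l, the cofactor that stimulates both enzymes, had a different course. Its level was 238.3 and 277.3 CPM in cAMP, 197.1 and 245.1 CPM in 4OHT, and 80.58 and 96.34 CPM in PD+LY. The cAMP and 4OHT libraries overlapped, and both PD+LY libraries lay below all the others. The log2 fold change was -0.22 ± 0.13 for 4OHT against cAMP (edgeR adjusted p = 0.317), -1.32 ± 0.13 for PD+LY against 4OHT (4.96e-05, 2.50-fold lower) and -1.54 ± 0.13 for PD+LY against cAMP (1.03e-05, 2.92-fold lower).

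**Figure D1:**
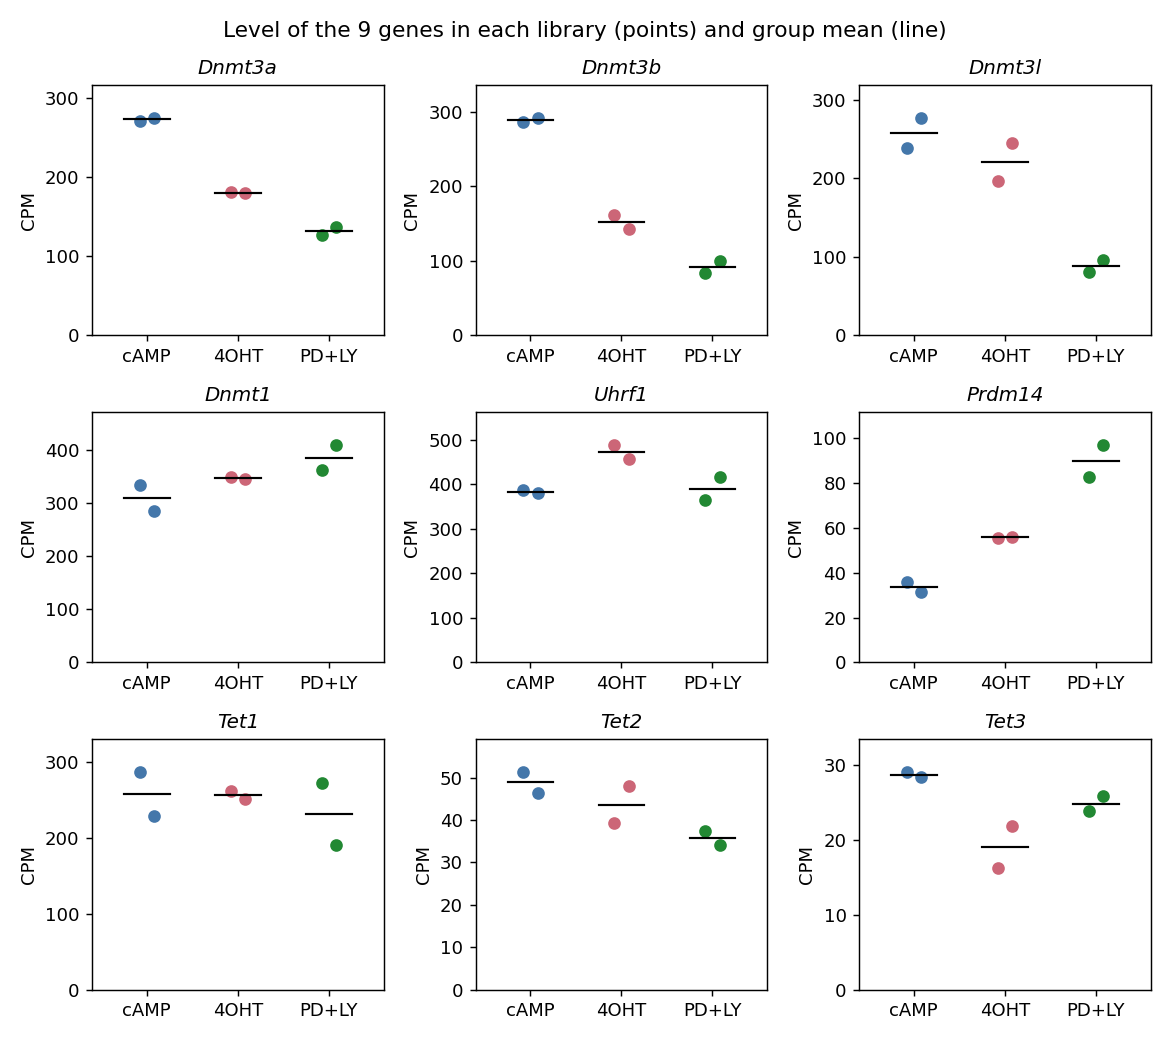
Level of the 9 genes in CPM (y axis, from 0) in the cAMP, 4OHT and PD+LY groups, with a point for each of the 2 libraries of a group and a line at their mean. Dnmt3a and Dnmt3b step down and Prdm14 steps up from group to group without overlap, Dnmt3l is low in PD+LY only, and the points of Tet1 overlap.

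Prdm14 moved the other way. It was at 35.66 and 31.29 CPM in cAMP, 55.51 and 56.06 CPM in 4OHT, and 82.46 and 97.02 CPM in PD+LY, which were 567 to 1995 counts per library. The groups did not overlap and the order was the reverse of that of Dnmt3a and Dnmt3b. Prdm14 rose by a log2 fold change of 0.74 ± 0.12 from cAMP to 4OHT (edgeR adjusted p = 0.00414), 0.69 ± 0.12 from 4OHT to PD+LY (0.00183) and 1.42 ± 0.12 from cAMP to PD+LY (1.11e-05, 2.69-fold). Without 4OHT replicate 1 or 2 the adjusted p for 4OHT against cAMP was 0.057 or 0.0514.

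Dnmt1, the maintenance methyltransferase, did not share the fall of the de novo genes. Its level was 334 and 286.2 CPM in cAMP, 349.6 and 346.1 CPM in 4OHT, and 362.3 and 410.8 CPM in PD+LY, and the groups did not overlap. Only PD+LY against cAMP passed the test, with a rise of 0.32 ± 0.10 on the log2 scale (edgeR adjusted p = 0.0356), well under 2-fold. That call was lost without cAMP replicate 2 (0.267), PD+LY replicate 2 (0.116), 4OHT replicate 1 (0.0712) or 4OHT replicate 2 (0.0701).

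Uhrf1, which recruits Dnmt1 to hemimethylated DNA, was at 387.2 and 380.7 CPM in cAMP, 489 and 457.5 CPM in 4OHT, and 363.9 and 416.2 CPM in PD+LY. Both 4OHT libraries lay above the other 4, while cAMP and PD+LY overlapped. The difference between 4OHT and cAMP was 0.30 ± 0.092 on the log2 scale and missed the threshold (edgeR adjusted p = 0.0654). Leaving out 1 library gave a difference of 0.26 to 0.35. From 4OHT to PD+LY Uhrf1 fell by 0.28 (SE 0.092, adjusted p = 0.0473). This call was lost on leaving out either cAMP library (0.0712 and 0.0693), either 4OHT library (0.288 and 0.154) or PD+LY replicate 1 (0.146).

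Among the Tet genes, which encode the dioxygenases that oxidise 5-methylcytosine, none reached a 2-fold change in any comparison. Tet1, the main member of the family in pluripotent cells, was at 287.2 and 228.6 CPM in cAMP, 262.1 and 251.5 CPM in 4OHT, and 272.3 and 190.2 CPM in PD+LY. All its groups overlapped, and its log2 fold changes of -0.0055 ± 0.15, -0.15 ± 0.15 and -0.16 ± 0.15 had edgeR adjusted p of 0.988, 0.503 and 0.482. Without PD+LY replicate 1 the values for PD+LY were -0.43 against 4OHT (adjusted p = 0.0237) and -0.44 against cAMP (0.0177), so for Tet1 the PD+LY result rests on which library is used.

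Tet2 was at 51.32 and 46.4 CPM in cAMP, 39.3 and 47.94 CPM in 4OHT, and 37.44 and 34.19 CPM in PD+LY. It fell from cAMP to PD+LY by 0.45 on the log2 scale (SE 0.13, edgeR adjusted p = 0.0261), a call lost without cAMP replicate 1 (0.16), cAMP replicate 2 (0.059) or PD+LY replicate 2 (0.0749). Tet3, the Tet enzyme of the oocyte and of neural tissue, was at 29.06 and 28.36 CPM in cAMP, 16.28 and 21.89 CPM in 4OHT, and 23.79 and 25.87 CPM in PD+LY. The 4OHT libraries were the lowest, and Tet3 fell from cAMP to 4OHT by 0.58 (SE 0.16, adjusted p = 0.0395), a call lost when any of these 4 libraries was left out (0.0548 to 0.356). The other comparisons of Tet2 and Tet3 did not pass the test.

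**Figure D2:**
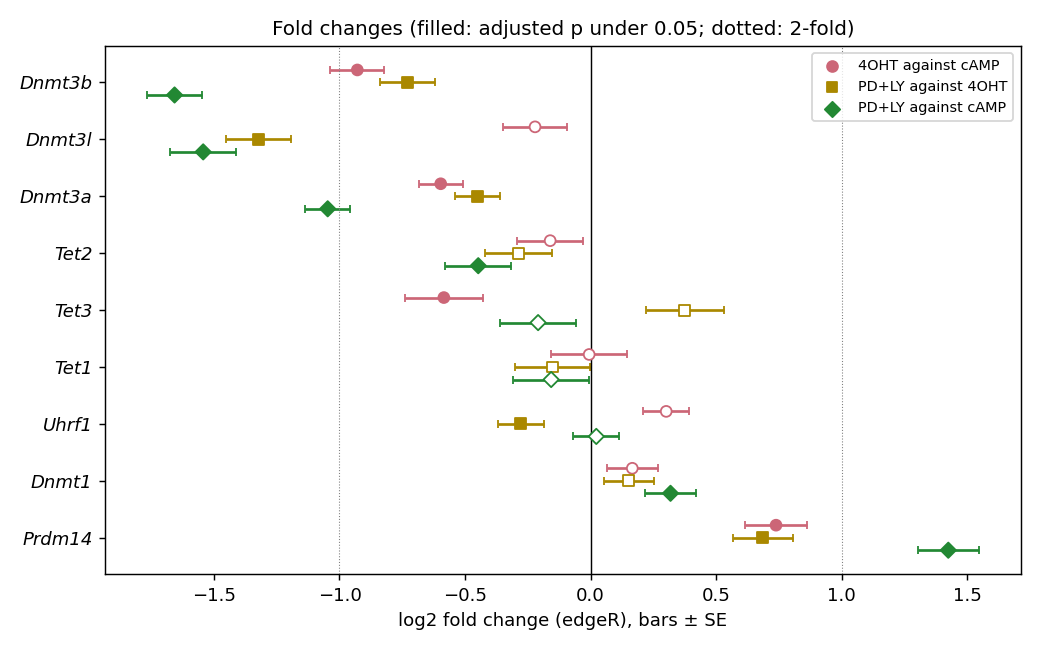
Log2 fold change from edgeR (x axis) of the 9 genes (y axis) in the 3 comparisons, with bars of 1 SE. Filled symbols have an adjusted p under 0.05 and the dotted lines mark 2-fold. Dnmt3a, Dnmt3b and Dnmt3l lie past the left line and Prdm14 past the right line in PD+LY against cAMP, and no symbol for 4OHT against cAMP lies past either line.

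For 4OHT against cAMP, 1 of the 9 genes rose and 3 fell at an adjusted p under 0.05, when 4.04% of all tested genes rose and 4.35% fell. At the study's threshold, which also asks for 2-fold, 0 of 9 passed (edgeR), beside 1.17% of all genes that rose and 1.51% that fell. DESeq2 likewise called 0, and 5 of the 9 had an unadjusted p under 0.05. Without 4OHT replicate 1, Dnmt3b passed the 2-fold threshold as well, at -1.01 on the log2 scale.

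For PD+LY against 4OHT, 1 gene rose and 4 fell, when 10.7% of all tested genes rose and 12.1% fell, and with the 2-fold threshold only Dnmt3l passed, against a background of 2.35% that rose and 4.90% that fell. For PD+LY against cAMP, 2 genes rose and 4 fell, with 12.1% of all genes rising and 13.7% falling. Of these, Prdm14 rose by at least 2-fold (3.00% of all genes) and Dnmt3a, Dnmt3b and Dnmt3l fell by at least 2-fold (6.24%). The median log2 fold change of the 9 genes was -0.16, -0.28 and -0.21 in the 3 comparisons, with all tested genes at -0.0022, 0.0077 and 0.0049. With 2 libraries a group, an exact two-sided permutation test of a single gene cannot give a p under 0.3333, so the tests rest on the spread shared over all genes.

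Levels can be compared between genes only per length, here as CPM per kilobase of all annotated exons of the gene (RPKM). Long alternative 3′ ends lower this value for Dnmt3a and the Tet genes, and gene counts do not separate isoforms. In cAMP the mean was 90.2 for Uhrf1, 86.3 for Dnmt3l, 56.7 for Dnmt3b, 42.0 for Dnmt1, 16.7 for Tet1, 16.4 for Dnmt3a, 13.1 for Prdm14, 2.90 for Tet2 and 1.72 for Tet3 RPKM. Per length, Dnmt3b therefore stood above Dnmt1 in cAMP. In CPM Dnmt1 was the higher (310.1 against 289.4), so this order rests on the exon lengths used, 7377 bases for Dnmt1 and 5106 for Dnmt3b. In PD+LY Dnmt1 was at 52.4 RPKM, Prdm14 at 35.0, Dnmt3l at 29.6, Dnmt3b at 18.0 and Dnmt3a at 7.94.

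The balance between maintenance and de novo genes is free of library scaling, since both are read in the same library. The ratio of Dnmt1 to the sum of Dnmt3a and Dnmt3b, in RPKM, was 0.626 and 0.526 in cAMP, 1.12 and 1.21 in 4OHT, and 2.05 and 2.00 in PD+LY. These ratios did not overlap between groups. Dnmt3b over Dnmt3a was 3.45 and 3.46 in cAMP, 2.90 and 2.59 in 4OHT, and 2.14 and 2.38 in PD+LY, again without overlap between groups. Prdm14 over Dnmt3b was 0.248 and 0.213 in cAMP, 0.685 and 0.782 in 4OHT, and 1.97 and 1.93 in PD+LY.

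**Figure D3:**
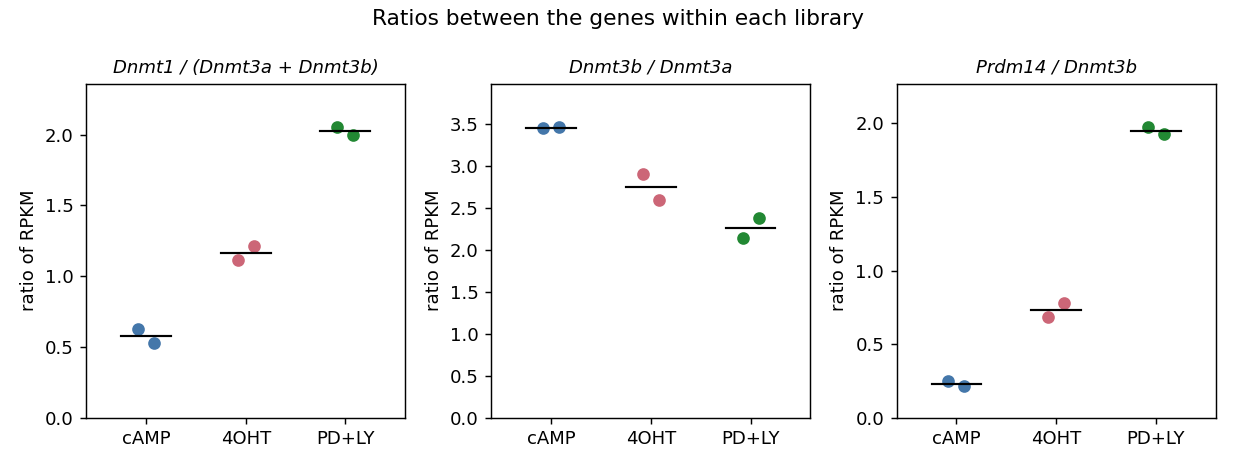
Ratios of RPKM (y axis, from 0) within each library for Dnmt1 over Dnmt3a plus Dnmt3b, Dnmt3b over Dnmt3a, and Prdm14 over Dnmt3b, with a point per library and a line at the mean of 2. Dnmt1 over the de novo genes goes from 0.526 to 0.626 in cAMP to 2.00 to 2.05 in PD+LY, and none of the 3 ratios overlaps between groups.

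The cofactor Dnmt3l over Dnmt3a plus Dnmt3b was 1.10 and 1.26 in cAMP, 1.55 and 2.12 in 4OHT, and 1.13 and 1.16 in PD+LY. It was thus highest in 4OHT, where both enzymes had fallen and Dnmt3l had not passed the test. Tet1 made up 76.9 to 83.7% of the summed Tet RPKM over the 6 libraries. The PD+LY libraries overlapped both other groups, and the 4OHT libraries (83.7 and 79.7%) lay just above those of cAMP (79.5 and 76.9%).

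In the profile over the 6 libraries, Dnmt3a and Dnmt3b resembled each other (Pearson r = 0.997 on log2 CPM, a description over 6 libraries that share their groups). Of 12223 genes compared, those most like Dnmt3a were Zfp618 (0.998), Myrf (0.997) and Dnmt3b, and those most like Dnmt3b were Dnmt3a, Eprn (0.996) and Zfp618 (0.995). Dnmt3l was closest to Nfyb (0.999), Cyfip2 and Snhg11 (both 0.996), and Prdm14 to Mrps2 (0.999), Btrc (0.997) and Slc36a1 (0.996). Likeness in shape says nothing of size, as Nfyb went only from 96.9 and 98.9 CPM in cAMP to 83.4 and 85.4 CPM in PD+LY. Prdm14 ran against Dnmt3a (r = -0.978), Dnmt3b (-0.967) and Dnmt3l (-0.885), with the same 6 libraries behind each value.

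The genes lie on separate chromosomes except for Dnmt3l (chr10:78041947-78063622, plus strand) and Tet1 (chr10:62804570-62908996, minus strand). In GENCODE M21 (GRCm38) Dnmt3b spans chr2:153649450-153687730 and Dnmt3a chr12:3806007-3914443, both on the plus strand, and Prdm14 chr1:13113457-13127163 on the minus strand. Counting ignored strand, so reads in an exon shared with an opposite gene cannot be told apart. Such overlaps were short, at most 90 bases between Dnmt3a and Dnmt3aos, 67 between Dnmt3l and Aire, and 43 between Tet2 and Gm42567, and Dnmt3aos had 0 counts in all 6 libraries.

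RefSeq start windows were matched for 8 of the 9 genes, 15 windows in all. The motifs looked for, on both strands, were GGTCTCTAA for PRDM14 (0.256% of all windows), TGACGTCA for the cAMP response element (1.79%), TTTGGCGC or TTTCCCGC for E2F (1.57%) and CCGGAAGT for ETS factors (3.89%). None of these letters occurred in the 7 windows of Dnmt3a, Dnmt3b and Dnmt3l, including the regions printed above. Exact strings found in 0.256 to 3.89% of all windows can easily be absent from 7 windows of any genes. Their absence therefore does not show whether these factors bind there. The E2F letters occurred in 1 window of Dnmt1, the only match among the 15. In CG content the windows of Dnmt3a (46, 47 and 18) and Dnmt3b (30) stood beside 57 for Tet2, 22 for Tet3 and 17 for Tet1.

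Of 22 partners and regulators of the methylation machinery, 1 fell from cAMP to 4OHT and none rose (median log2 fold change -0.04). On the step from 4OHT to PD+LY 3 rose and 2 fell, and over both steps 5 rose and 1 fell. Among all tested genes, 4.04% rose and 4.35% fell on the first step, 10.7% and 12.1% on the second, and 12.1% and 13.7% over both. The count of 5 was 2 without cAMP replicate 1, 1 without cAMP replicate 2 and 3 without PD+LY replicate 2, and that of 3 was 1 without 4OHT replicate 2 and 2 without 4OHT replicate 1. Dppa3, which keeps Uhrf1 from chromatin in oocytes and naive cells, was the only one past 2-fold. It was at 68.6 and 76.1 CPM in cAMP, 75.7 and 74.1 CPM in 4OHT, and 230 and 234 CPM in PD+LY. Its log2 fold change was 0.05 ± 0.096 for 4OHT against cAMP (edgeR adjusted p = 0.81) and 1.63 ± 0.096 for PD+LY against 4OHT (1.48e-06), so its level, like that of Dnmt3l, stood apart in the PD+LY libraries. Cbx5, a heterochromatin protein, was the 1 that fell in 4OHT, by 0.48 (SE 0.098, adjusted p = 0.0123), and none of the list fell without cAMP replicate 1, 4OHT replicate 1 or 4OHT replicate 2.

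Of 10 readers of methylated DNA, 0 passed when 4OHT or PD+LY was set against cAMP (edgeR, with 0 and 1 at an unadjusted p under 0.05), and 1, Mbd6, fell from 4OHT to PD+LY. Counts in this paragraph stand beside the shares of all tested genes given for the partners. Of 19 tested genes for Tet cofactors and base excision, 1 rose and 1 fell on the step from cAMP to 4OHT. The step to PD+LY had 3 that rose and 4 that fell, and both steps together had 1 and 2. The 2 past 2-fold were the cytidine deaminase Apobec1, which fell by 1.61 (SE 0.21, adjusted p = 0.000358) from 4OHT to PD+LY, and the glycosylase Neil2, which fell by 1.52 (SE 0.16, adjusted p = 4.96e-05) from cAMP to PD+LY. Tdg, the glycosylase that removes oxidised methylcytosine, is listed at 0 in all 6 libraries. A count of 0 throughout can also come from how reads were assigned to genes, so absence of its transcript was not shown. The same holds for other genes listed at 0 throughout. Of 15 genes that supply the methyl donor, 1 rose and 5 fell from 4OHT to PD+LY, among them the mitochondrial folate enzyme Mthfd2, at 175 and 151 CPM in 4OHT and 61 and 58.4 CPM in PD+LY (fell by 1.45, SE 0.11, adjusted p = 7.48e-06).

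A list of 24 germline genes known to be kept silent by promoter methylation in somatic and embryonic cells mostly went up against cAMP. From cAMP to 4OHT 15 rose and 0 fell, with a median log2 fold change of 0.81, and from cAMP to PD+LY 16 rose and 1 fell, with a median of 0.84. Of these, 7 and 11 rose by at least 2-fold. On the step from 4OHT to PD+LY 7 rose and 3 fell, with a median of 0.32. Among all tested genes 4.04% rose and 4.35% fell from cAMP to 4OHT, and 12.1% and 13.7% from cAMP to PD+LY. From 4OHT to PD+LY 10.7% of all tested genes rose and 12.1% fell. The summed level of the list was 525 to 569 CPM in cAMP, 973 to 1005 CPM in 4OHT and 1208 to 1238 CPM in PD+LY. The list was chosen with results of these libraries known, so its direction is a description. The count of 15 was 6 without 4OHT replicate 1, 7 without 4OHT replicate 2, 9 without cAMP replicate 2 and 11 without cAMP replicate 1, while that of 16 stayed between 13 and 17.

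Dazl, an RNA-binding protein of germ cells, was at 60.8 and 51.6 CPM in cAMP, 160 and 134 CPM in 4OHT, and 339 and 271 CPM in PD+LY. It rose by 1.39 ± 0.14 on the log2 scale from cAMP to 4OHT (edgeR adjusted p = 0.000119) and by 2.44 ± 0.14 from cAMP to PD+LY (4.56e-07). This order of groups is the inverse of that of Dnmt3b. Not every gene of the list kept it. Stra8, a gatekeeper of meiosis, was at 97.8 and 94.9 CPM in cAMP, 236 and 243 CPM in 4OHT, and 140 and 177 CPM in PD+LY, so it fell from 4OHT to PD+LY by 0.59 (SE 0.11, adjusted p = 0.00289). Piwil2 and Mael, of the piRNA pathway, rose by 0.92 and 0.93 in 4OHT and fell by 0.94 each on the step to PD+LY. Sycp3, a component of the meiotic chromosome axis, fell by 1.25 (SE 0.34, adjusted p = 0.017) from cAMP to PD+LY. Tuba3a and Tuba3b also rose in both groups, but they are near-identical copies whose reads can be split between them. The 22 genes of the list with a RefSeq start window held 10 to 38 CG dinucleotides per window, with a median of 20.

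Imprinted genes, whose parental alleles differ in methylation, did not move as 1 group. Of 24 tested, 2 rose and 7 fell from cAMP to 4OHT (median -0.20) and 0 rose and 11 fell from cAMP to PD+LY (median -0.33). Among all tested genes 4.04% rose and 4.35% fell in the first comparison, and 12.1% rose and 13.7% fell in the second. Mest was at 121 and 137 CPM in cAMP, 40.1 and 41.1 CPM in 4OHT, and 31.3 and 31.5 CPM in PD+LY, a fall of 1.67 (SE 0.11, edgeR adjusted p = 2.17e-05) and then 0.37 (SE 0.11, adjusted p = 0.0325) on the log2 scale. Dlk1 rose by 0.76 ± 0.18 in 4OHT (adjusted p = 0.0218) and fell by 1.88 (SE 0.19, adjusted p = 5.33e-05) from 4OHT to PD+LY. The falls of 7 genes in 4OHT became 1 without 4OHT replicate 1, 2 without 4OHT replicate 2, 4 without cAMP replicate 1 and 5 without cAMP replicate 2. In these counts alleles are not separated.

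**Figure D4:**
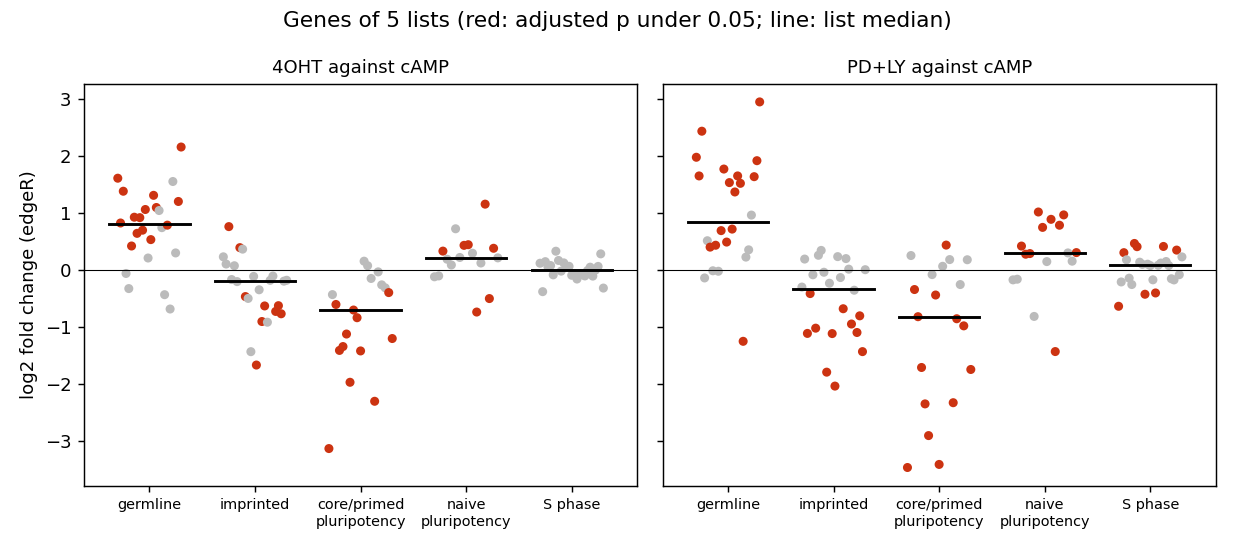
Log2 fold change from edgeR (y axis) of each tested gene of 5 lists (x axis), for 4OHT against cAMP on the left and PD+LY against cAMP on the right. Red points have an adjusted p under 0.05 and lines are list medians, which for the germline genes are 0.81 and 0.84 and for the core and primed pluripotency genes -0.70 and -0.82, with S phase genes near 0.

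Marker groups of other cell states and types were read beside the 9 genes. Among all tested genes, 4.04% rose and 4.35% fell from cAMP to 4OHT, and 10.7% and 12.1% from 4OHT to PD+LY. From cAMP to PD+LY 12.1% rose and 13.7% fell, and the list counts below stand beside these shares. Of 19 core and primed pluripotency genes, 12 fell and 0 rose from cAMP to 4OHT (median -0.70) and 12 fell and 1 rose from cAMP to PD+LY (median -0.82). On the step from 4OHT to PD+LY, where Dnmt3a and Dnmt3b fell again, 6 of these genes rose and 6 fell (median -0.02), counts that became 0 and 3 without 4OHT replicate 1 and 2 and 3 without 4OHT replicate 2. The list had summed levels of 3116 to 3117, 2520 to 2557 and 2251 to 2586 CPM in cAMP, 4OHT and PD+LY, and no defining marker at 0 throughout. Lin28a, an RNA-binding protein of the primed state, fell by 1.12 (SE 0.10, edgeR adjusted p = 8.95e-05) and by 2.35 (SE 0.10, adjusted p = 6.85e-08) against cAMP. Fgf5, a marker of the formative and primed epiblast, fell by 3.14 (SE 0.33, adjusted p = 0.000238) from cAMP to 4OHT. Pou5f1, the shared pluripotency factor, was at 663 and 686 CPM in cAMP, 754 and 750 CPM in 4OHT, and 627 and 786 CPM in PD+LY, and did not pass the test in any comparison.

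The summed level of naive pluripotency genes had the order of Prdm14. Of 16, 5 rose and 2 fell from cAMP to 4OHT and 9 rose and 1 fell from cAMP to PD+LY, and the sum was 3010 to 3156 CPM in cAMP, 3581 to 3789 CPM in 4OHT and 4102 to 4292 CPM in PD+LY. A large part of this sum was Dppa5a, whose level is given above. On the step from 4OHT to PD+LY 5 rose and 2 fell, with a list median of only 0.09. The 5 that rose in 4OHT became 2 without cAMP replicate 1 and 1 without cAMP replicate 2, 4OHT replicate 1 or 4OHT replicate 2, and the 9 became 6 to 10 on leaving out 1 library. Nanog rose by 0.60 ± 0.10 from 4OHT to PD+LY (edgeR adjusted p = 0.00184), and Tbx3 by 1.16 ± 0.099 from cAMP to 4OHT (adjusted p = 6.39e-05). Of 8 germ cell precursor genes, 2 rose and 1 fell from cAMP to 4OHT and 4 rose and 0 fell from cAMP to PD+LY (edgeR, 5 with an unadjusted p under 0.05), including Itgb3 (1.04 ± 0.14, adjusted p = 0.00027). Prdm1, which acts beside Prdm14 in germ cell specification, fell by 0.80 (SE 0.15, adjusted p = 0.00685) in 4OHT and rose by 1.17 ± 0.14 (adjusted p = 0.000235) from 4OHT to PD+LY, unlike Prdm14.

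Proliferation was read from S phase and mitosis genes. The share of all tested genes from cAMP to PD+LY was 12.1% that rose and 13.7% that fell. Of 25 S phase genes, with which Dnmt1 and Uhrf1 are known to cycle, 0 passed from cAMP to 4OHT (edgeR, 3 with an unadjusted p under 0.05), and 5 rose and 3 fell from cAMP to PD+LY, none by 2-fold. The 5 that rose became 1 without either cAMP library and 2 without either 4OHT library, and the 3 that fell became 1 without cAMP replicate 2 and 5 without PD+LY replicate 2. Their summed level was 4081 to 4094 CPM in cAMP, 3978 to 4077 CPM in 4OHT and 3886 to 4374 CPM in PD+LY. Of 14 mitosis genes, 7 fell and 0 rose from cAMP to PD+LY, with sums of 3733 to 3878 and 3079 to 3098 CPM.

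Of 15 ERK targets, 13 fell and 0 rose from 4OHT to PD+LY (median -2.04). From cAMP to 4OHT 2 rose, 3 fell and 10 did not pass (median -0.15), so the list did not move as a whole. The ERK targets summed to 955 to 1009 CPM in cAMP, 775 to 796 CPM in 4OHT and 540 to 578 CPM in PD+LY. Much of this sum was Etv5, at 526 and 469 CPM in cAMP, 339 and 343 CPM in 4OHT, and 385 and 424 CPM in PD+LY. Etv5 weighed heavily in the lower sum in 4OHT, which therefore does not stand for the list. The paper reports an ERK activation score that was modestly higher with the active Braf fusion and fell sharply with the inhibitors. Dnmt3a and Dnmt3b fell and Prdm14 rose at both steps. Whether these courses are linked was not tested. Of 12 thyroid markers, 3 fell and 0 rose from cAMP to 4OHT and 7 rose and 0 fell on the step to PD+LY, with sums of 1114 to 1663, 576 to 770 and 1003 to 2008 CPM in cAMP, 4OHT and PD+LY. Of 13 mesenchymal markers, 4 rose and 0 fell from cAMP to 4OHT and 5 rose and 3 fell from cAMP to PD+LY, and they summed to 1381 to 1521, 2475 to 2620 and 4243 to 4989 CPM, mostly from collagen genes. Of 9 endothelial markers, 1 rose (Pecam1, by 0.36 ± 0.089, edgeR adjusted p = 0.0271) and 4 fell from cAMP to 4OHT (Tie1, Kdr, Cldn5 and Cdh5, by 1.47 to 3.46 on the log2 scale, edgeR adjusted p 0.000688 to 0.0373), with a list median of -0.72. From cAMP to PD+LY 5 fell and 0 rose. The endothelial sums of 228 to 230, 247 to 250 and 215 to 219 CPM were mostly Pecam1, at 128 to 171 CPM. In 4OHT the sum thus did not follow the 4 markers that fell. Sums of neural progenitors were 106 to 109, 78.3 to 80.9 and 91.6 to 99.2 CPM, and those of blood and macrophages 71.6 to 73.7, 63.8 to 73.1 and 34.4 to 35.9 CPM, with Ptprc, Adgre1 and Hbb-bs at 0 throughout. From cAMP to PD+LY, 2 of 10 neural progenitor markers rose and 5 fell, and 3 of 6 tested blood and macrophage markers fell and 0 rose. The part of these marker groups in the changes of the 9 genes was not tested.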

How the data were processed

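RNA was sequenced from 6 organoid libraries (3 groups of 2, from the sample titles). The deposited values are raw counts per gene symbol. According to the authors' methods and the submitters' processing notes, Trimmomatic was used for trimming, HISAT2 for alignment (mm10) and HTSeq for counting, with strand ignored, although the kit keeps strand. Tool versions and the annotation are not given in the sources used here.

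All 25239 genes entered the analysis. Genes were filtered with filterByExpr (minimum count 10, minimum total 15), scaled with TMM factors and fitted with 3 groups in edgeR 4.0.16 (quasi-likelihood, R 4.3.3), and p-values were adjusted by Benjamini-Hochberg over 15256 genes. Thresholds were an adjusted p under 0.05 and, for the study's calls, 2-fold. The common biological coefficient of variation was 0.105. Tested on simulated data for 4OHT against cAMP (14994 genes), edgeR recovered 196 of 200 genes changed by 1.5 on the log2 scale with 1 false call. Depth limits precision to counting error plus the spread of 2 libraries.

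The 9 genes and all lists were chosen with earlier results of these data known. List genes could be named when called at 2-fold with a mean of at least 50 counts, up to 4 per list and comparison by size. Not every gene that qualified was named. No qualifying ERK target was named, nor were Pou3f1 and Lin28b of the core and primed list, so the named genes are a selection. Other genes named (Pou5f1, Dppa5a, Cbx5, Mbd6, Nanog, Tdg, Piwil2, Mael, Sycp3, Pecam1, Tie1, Cldn5, Etv5) were picked after their values were seen. Exon lengths and positions came from GENCODE M21, start windows from RefSeq (GRCm38.p6). Alternatives were DESeq2 1.42.0, other scalings, no filter, fits to 2 groups, a replicate block and leaving out each library. List counts under the alternatives were added after seeing the data.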

Additional observations from a re-analysis of the deposited data

How the results depend on the processing

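Of the log2 fold changes of the 9 genes recomputed under the alternatives, 310 kept their direction and side of the threshold, 23 lost the threshold, 9 gained it and 9 turned sign. Dnmt3b and Dnmt3l kept every call at the adjusted p, and the 3 genes called down at 2-fold for PD+LY against cAMP were 2 without PD+LY replicate 1. The turned values were small. Tet1 for 4OHT against cAMP was 0.0069 with upper-quartile scaling, 0.0080 with the replicate block and -0.16 to 0.17 on leaving out 1 library. Leaving out 1 library gave Tet1 -0.43 to 0.086 for PD+LY against 4OHT and -0.44 to 0.082 for PD+LY against cAMP. Uhrf1 for PD+LY against cAMP was -0.0049 with upper-quartile scaling and -0.075 to 0.12 on leaving out 1 library. Without the fold threshold the genes called were 1280, 3469 and 3925 (408, 1107 and 1409 with it), and of the 9 genes 3 fell and 1 rose, 4 fell and 1 rose, and 4 fell and 2 rose in the 3 comparisons, in the order of the report. Leaving out 1 library gave 164 to 487, 632 to 1176 and 1118 to 1391 genes called, and 0 to 1 of the 9 genes called down for 4OHT against cAMP. The count of 164 was without 4OHT replicate 1, and that of 632 without 4OHT replicate 2. Replicate numbers were shared between groups, but same-numbered libraries deviated together with r of 0.0718, 0.207 and 0.0586, so the numbers were not taken as pairs. With the replicate block 513, 1222 and 1481 genes were called, and the calls at 2-fold among the 9 genes kept their counts. Under the block Uhrf1 for 4OHT against cAMP (0.30, adjusted p = 0.0204) and Tet3 for PD+LY against 4OHT (0.38, 0.043) passed. Uhrf1 for 4OHT against cAMP also passed with DESeq2 (0.0456), with no filter (0.0182) and in a fit to the 2 groups (0.013). In such fits Dnmt1 for PD+LY against cAMP and Uhrf1 for PD+LY against 4OHT did not (0.0678 each). The causes were not tested. With 2 libraries a group, a gene whose libraries differ, such as Tet1, cannot be placed.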
